A study of Mus musculus with 24 samples.

Results

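The 36 genes described here encode extracellular metalloproteases and their tissue inhibitors, and were taken by symbol from the 37991 genes of the count table: 16 matrix metalloproteinases (MMPs), 4 tissue inhibitors of metalloproteinases (TIMPs), 8 ADAMs and 8 ADAMTS proteases. RNA was sequenced from mammary tumors or glands of female mice in 24 libraries, 3 for each of 8 groups. PyMT mice were heterozygous F1 females bred from FVB females and males of the strain FVB/N-Tg(MMTV-PyVT)634Mul/J. Their transgene encodes polyoma middle T antigen and is driven by the mouse mammary tumor virus promoter, which is active mainly in mammary epithelium, so that every cell type of the mouse holds the transgene while the epithelium is the main site of its expression. Age-matched homozygous FVB females without the transgene were the controls, and both genotypes were taken at 6 weeks of age (hyperplasia in PyMT mice), 8 weeks (adenoma/MIN, mammary intraepithelial neoplasia), 10 weeks (early carcinoma) and 12 weeks (late carcinoma). No agent was given to either genotype. Tumors and whole glands differ in their makeup, which limits the FVB gland as a counterpart of the tumor cells.

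MMPs are zinc-dependent proteases that cut collagens, basement membrane and other matrix proteins, and most are secreted as inactive proenzymes or held at the cell surface as membrane-type MMPs. TIMPs bind the active site of these enzymes, and TIMP3 also inhibits several ADAM and ADAMTS proteases. ADAMs are membrane proteases, some of which release growth factors and receptors from the cell surface, and ADAMTS proteases are secreted, with roles in procollagen processing and in the breakdown of proteoglycans such as aggrecan and versican. In mammary gland and in mammary tumors, many of these genes are known to be expressed by stromal cells.

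Between 6969375 and 13516601 reads were counted per library. In 13 libraries, 6 PyMT and 7 FVB, counts came in packets, so that most genes of low level had 0 or a count near 8 to 25 reads, and 5 of these libraries had a count of 0 for more than 1% of those genes whose median level lay between 10 and 30 CPM (counts scaled to a common library total): replicate 2 of PyMT at weeks 6, 8 and 10, FVB replicate 1 at week 8 and FVB replicate 3 at week 10. In 4 FVB libraries (week 6 replicates 1 and 2, week 10 replicate 3 and week 12 replicate 1) the 10 skeletal muscle markers summed to 16475 to 72227 CPM. Genes with at least 1 CPM in at least 12 of the 24 libraries were tested, which were 14918 genes and 32 of the 36 members. *Mmp7*, *Mmp10*, *Mmp13* and *Mmp24* did not reach this level. A gene was called a differentially expressed gene (DEG) when its adjusted p (edgeR's quasi-likelihood test, Benjamini-Hochberg adjustment over all tested genes) was under 0.05 and its fold change above 2. Counts given for a gene are normalized counts (divided by DESeq2's median-of-ratios size factors), in the order of replicates 1, 2 and 3. The tests used edgeR's TMM scaling, and a log2 fold change is PyMT against FVB.

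Between 13 and 19 of the 32 tested members were called lower in PyMT tissue at each age, and at most 1 was called higher. At week 6, 15 members fell and 0 rose (of all tested genes, 6.46% were called lower and 3.58% higher). At week 8, 13 fell and 0 rose (6.37% and 3.57% of all genes), and at week 10, 16 fell and 0 rose (9.09% and 4.83%). At week 12, 19 fell and 1, *Mmp16*, rose (13% and 7.75% of all genes). The median log2 fold change of the 32 members was -1.48, -1.41, -1.51 and -1.57 at weeks 6, 8, 10 and 12, where the medians of all tested genes were -0.08, -0.04, 0.01 and -0.00. The study collected tissue from 3 mice of each genotype at each age, so p-values measure the spread between these mice. In bulk tissue, fewer cells of a type and less RNA per cell cannot be told apart.

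The counts of called members and of all called genes depended on single libraries at every age. Without PyMT replicate 1, the 15 calls of week 6 became 9 and the 13 calls of week 8 became 4, while the share of all genes called in either direction went from 10% to 5.74% and from 9.95% to 3.44%. Without FVB replicate 2 or 3, week 8 had 6 or 8 calls (4.59% or 7.19% of all genes). Without its 2 libraries with missing genes it had 21 (15.8% of all genes), of which 2, *Mmp12* (log2 fold change 4.98, adjusted p = 0.0172) and *Timp1*, were higher. Week 10 went from 16 members and 2076 of all genes to 13 and 1262 without PyMT replicate 1. Week 12 went from 20 members and 3092 of all genes to 14 and 2189 without PyMT replicate 3.

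With the 12 PyMT and 12 FVB libraries compared across all weeks in 1 fit, 21 members fell (17.2% of all genes were called lower) and 1 member, *Timp1*, rose (8.51% called higher). Of the 32 tested members, 11 were called lower at each of the 4 weeks, against 3.58% of all tested genes: *Mmp2*, *Mmp14*, *Mmp19*, *Mmp28*, *Timp2*, *Timp3*, *Adam12*, *Adam15*, *Adamts2*, *Adamts9* and *Adamts12*. By single libraries, 15 members had all 12 PyMT counts below all 12 FVB counts (7.22% of all genes), and 0 members had the reverse order (4.67% of all genes). Within a week, 19, 20, 20 and 20 members had all 3 PyMT counts below all 3 FVB counts at weeks 6, 8, 10 and 12 (20.4%, 21.7%, 21.6% and 25.2% of all genes), and 1, 1, 2 and 5 had them above (16.2%, 18.4%, 18.9% and 21.5%).

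**Figure D1:**
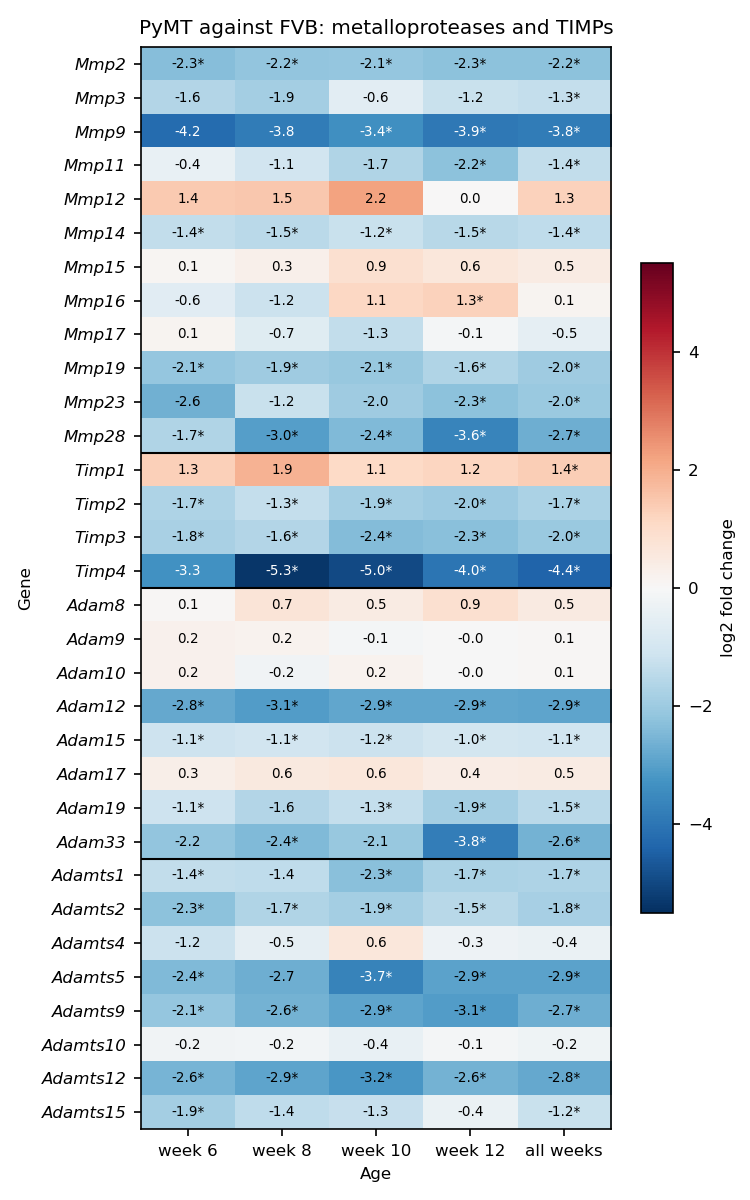
Log2 fold change of PyMT against FVB (colour and number) for the 32 tested members (rows, by family) at each age and over all weeks (columns). An asterisk marks an adjusted p under 0.05 with a fold change above 2. Most cells are blue. *Adam9* and *Adam10* lie near 0, and *Adam17* is positive at every age (0.33 to 0.63) without an asterisk. *Mmp16* carries the only asterisk on a red cell at a single week and *Timp1* the only one over all weeks.

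Per length of the gene's exons, the members spanned a wide range. In FVB glands *Mmp2* was highest, with a mean of 122 CPM per kb over the 12 libraries, followed by *Timp2* (98.2), *Mmp14* (66.2), *Timp3* (48.7), *Adamts12* (36.2) and *Adamts5* (32.2). In PyMT tumors the order was led by *Mmp15* (36.2 CPM per kb), *Adam10* (30.6), *Adam9* (30.2), *Timp2* (29.3), *Mmp2* (25.9) and *Mmp14* (24.9). As a share of the summed MMP level, *Mmp2* held 31.5% to 51.4% in FVB libraries and 16.5% to 30.02% in PyMT libraries, and *Mmp15* held 4.65% to 13.9% in FVB and 21.3% to 57.6% in PyMT. The shares of these 2 genes did not overlap between the genotypes, while the share of *Mmp14* did (15.6% to 35.2% in FVB, 16.6% to 26.8% in PyMT).

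**Figure D2:**
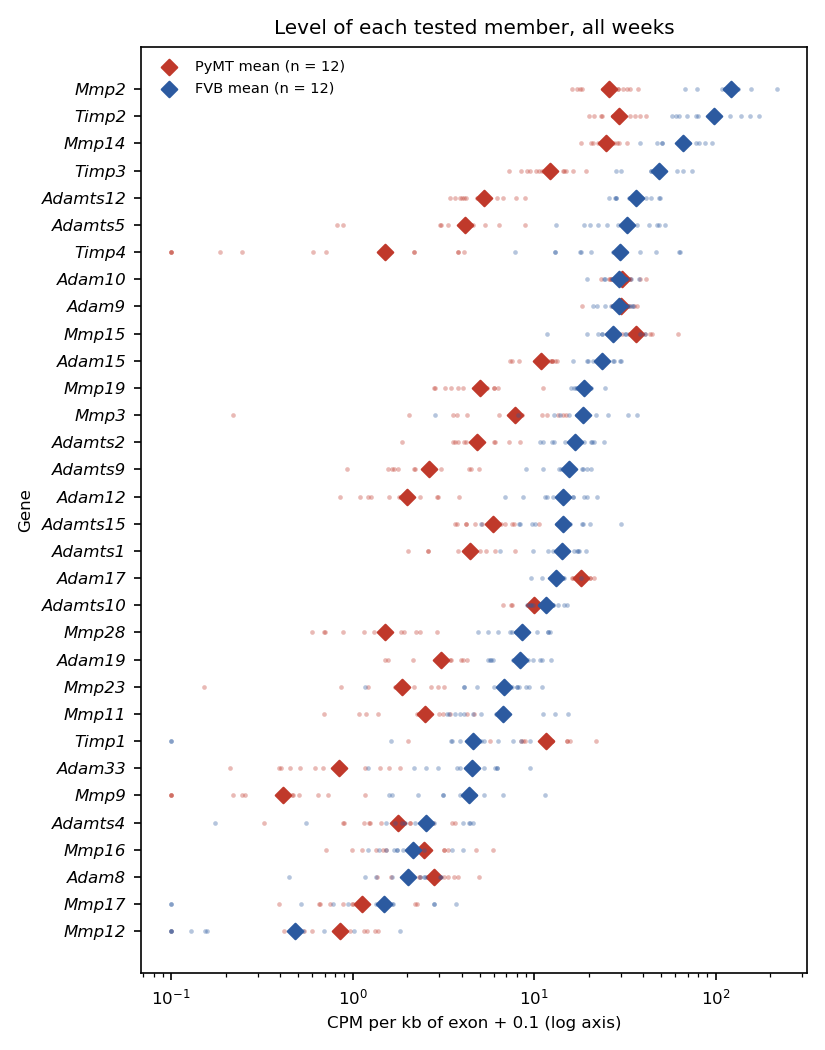
Level of each tested member in CPM per kb of exon plus 0.1 (log axis), with small points for single libraries and diamonds for the mean of 12 PyMT (red) or 12 FVB (blue) libraries, ordered by the FVB mean. *Mmp2* leads in FVB at 122 CPM per kb and *Mmp15* in PyMT at 36.2, while the points of *Adam9* and *Adam10* lie on each other.

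Of the gelatinases, which cut denatured collagen and the collagen of basement membrane, both fell. *Mmp2* (chr8:95351227-95377316 on mm9) was called at every week. PyMT counts of *Mmp2* were 441, 427 and 604 at week 6, 737, 476 and 935 at week 8, 738, 662 and 774 at week 10, and 843, 852 and 471 at week 12. In FVB, *Mmp2* stood at 2885, 1731 and 2816 at week 6, 2932, 4039 and 2929 at week 8, 3361, 3462 and 3039 at week 10, and 3016, 2052 and 5752 at week 12. The highest PyMT library lay below the lowest FVB library at every week and over all weeks. The gene had log2 fold changes of -2.34, -2.18, -2.13 and -2.28 at weeks 6, 8, 10 and 12 (SE 0.18 to 0.40, adjusted p 0.000381 to 0.00733), and log2 fold change -2.24 ± 0.16 (SE), adjusted p = 4.21e-11 over all weeks. *Mmp9*, the gelatinase known from neutrophils, macrophages and other inflammatory cells, was low in both genotypes. PyMT counts of *Mmp9* were 3.56, 0 and 10.8 at week 6, 0, 0 and 15.9 at week 8, 18.7, 32.5 and 4.26 at week 10, and 12.3, 10.7 and 4.62 at week 12. In FVB, *Mmp9* stood at 131, 65.6 and 91.6 at week 6, 158, 46.5 and 45.2 at week 8, 123, 116 and 355 at week 10, and 199, 93.3 and 143 at week 12. All PyMT libraries were below all FVB libraries, and 3 of the PyMT libraries had a count of 0. It was called at weeks 10 and 12 and over all weeks (log2 fold change -3.83 ± 0.56 (SE), adjusted p = 3.4e-06), and at weeks 6 and 8 it missed the threshold (log2 fold change -4.22 ± 1.16 (SE), adjusted p = 0.0516, and log2 fold change -3.83 ± 1.63 (SE), adjusted p = 0.171). For *Mmp9* the call was lost at week 10 without PyMT replicate 1 or 3, without FVB replicate 1 or 3, with the replicate block or without the muscle-rich libraries (adjusted p 0.0506 to 0.111).

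Among the membrane-type MMPs, which act at the cell surface, *Mmp14* fell, *Mmp16* rose at week 12 and *Mmp15* and *Mmp17* were not called. *Mmp14* encodes MT1-MMP, the main cellular activator of the MMP2 proenzyme. PyMT counts of *Mmp14* were 576, 461 and 589 at week 6, 490.4, 409.7 and 699 at week 8, 638, 518 and 519 at week 10, and 572, 615 and 458 at week 12. In FVB, *Mmp14* stood at 1016, 1376 and 1792 at week 6, 844, 1582 and 2126 at week 8, 1549, 1402 and 1149 at week 10, and 1118, 1957 and 1769 at week 12. No PyMT count reached an FVB count in any of the 24 libraries. Its changes were smaller than those of *Mmp2*, with log2 fold changes of -1.36, -1.49, -1.24 and -1.51 at weeks 6, 8, 10 and 12 (SE 0.20 to 0.37, adjusted p 0.00265 to 0.0407), and over all weeks it had log2 fold change -1.41 ± 0.14 (SE), adjusted p = 8.29e-09. For *Mmp14* the call was lost at week 6 without PyMT replicate 1 or with library-size scaling (adjusted p 0.0506 to 0.0516), and at week 8 without PyMT replicate 1, 2 or 3, without FVB replicate 2 or 3 or with library-size scaling (adjusted p 0.0575 to 0.14), and at week 10 with library-size scaling (adjusted p 0.0645).

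*Mmp16*, which encodes MT3-MMP, moved apart from the others. PyMT counts of *Mmp16* were 65.9, 244 and 44.3 at week 6, 100.2, 78.8 and 88.8 at week 8, 154, 438 and 102 at week 10, and 228, 339 and 226 at week 12. In FVB, *Mmp16* stood at 118, 251 and 162 at week 6, 148, 294 and 176 at week 8, 106, 96.2 and 122 at week 10, and 82.1, 124 and 137 at week 12. The PyMT libraries were all below the FVB libraries at week 8 and all above them at week 12, and the groups overlapped at weeks 6 and 10. At week 12 it rose (log2 fold change 1.26 ± 0.31 (SE), adjusted p = 0.0178), and at week 8 the lower values were not called (log2 fold change -1.19 ± 0.39 (SE), adjusted p = 0.0928). Over all weeks the PyMT against FVB difference was log2 fold change 0.14 ± 0.35 (SE), adjusted p = 0.761. For *Mmp16* the call was lost at week 12 without PyMT replicate 2 or in a fit of all 24 samples (adjusted p 0.0798 to 0.108). Without the 2 libraries with missing genes, *Mmp16* was called lower at week 8 (log2 fold change -1.28, adjusted p = 0.0323). *Mmp15* (MT2-MMP) ran from 948 to 2382 in PyMT and from 448 to 1507 in FVB, with log2 fold change 0.46 ± 0.15 (SE), adjusted p = 0.0142 over all weeks, which is under the fold limit, and its groups overlapped at weeks 6 and 8 only. *Mmp17* (MT4-MMP) was below 109 in every library and was not called at any week (log2 fold change -0.51 ± 0.58 (SE), adjusted p = 0.493 over all weeks).

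*Mmp11*, *Mmp19*, *Mmp23* and *Mmp28* fell. *Mmp11*, stromelysin-3, is known as a product of stromal fibroblasts. PyMT counts of *Mmp11* were 64.99, 104 and 21.6 at week 6, 74.4, 25.3 and 55.9 at week 8, 92.5, 13.6 and 47.8 at week 10, and 50.4, 67.3 and 28.6 at week 12. In FVB, *Mmp11* stood at 71.9, 88.7 and 85.5 at week 6, 80.7, 113 and 138 at week 8, 156, 252 and 105 at week 10, and 291, 73.1 and 351 at week 12. The groups overlapped at week 6 and not at weeks 8, 10 and 12. It was called at week 12 alone (log2 fold change -2.24 ± 0.59 (SE), adjusted p = 0.0244) and over all weeks (log2 fold change -1.36 ± 0.35 (SE), adjusted p = 0.00241). For *Mmp11* the call was lost at week 12 without PyMT replicate 1 or 3, without FVB replicate 1 or 3, with the replicate block or without the muscle-rich libraries (adjusted p 0.0572 to 0.0917). *Mmp19* encodes a basement membrane-degrading MMP. PyMT counts of *Mmp19* were 78.3, 118 and 168 at week 6, 156, 82.5 and 175 at week 8, 88.97, 174 and 96.4 at week 10, and 325, 132 and 107 at week 12. In FVB, *Mmp19* stood at 496, 575 and 542 at week 6, 584, 489.6 and 545 at week 8, 494, 465 and 596 at week 10, and 474, 599.9 and 732 at week 12. The highest PyMT count, in week 12 replicate 1, was below the lowest FVB count. Called at every week, *Mmp19* had log2 fold changes of -2.14, -1.94, -2.07 and -1.64 at weeks 6, 8, 10 and 12 (SE 0.32 to 0.41, adjusted p 0.00453 to 0.0189). For *Mmp19* the call was lost at week 8 without PyMT replicate 1 (adjusted p 0.0529), and at week 12 without PyMT replicate 2 or 3 or without FVB replicate 3 (adjusted p 0.0599 to 0.0718).

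*Mmp23* encodes an MMP without the usual cysteine switch and hemopexin domain. PyMT counts of *Mmp23* were 40.95, 1.04 and 14.8 at week 6, 56.3, 53.4 and 59.99 at week 8, 32.9, 33.5 and 31.6 at week 10, and 35.98, 35.3 and 22.2 at week 12. In FVB, *Mmp23* stood at 77.7, 116 and 159 at week 6, 21.4, 159 and 219 at week 8, 149, 81.2 and 169 at week 10, and 94.2, 185 and 183 at week 12. At week 8 the FVB library of replicate 1, one of those with missing genes, was below all 3 PyMT libraries, and at the other weeks the groups were apart. *Mmp23* was called at week 12 (log2 fold change -2.26 ± 0.44 (SE), adjusted p = 0.00692) and over all weeks (log2 fold change -2.02 ± 0.38 (SE), adjusted p = 8.99e-05). *Mmp28*, epilysin, is known from epithelia such as skin. PyMT counts of *Mmp28* were 70.3, 76.1 and 90.2 at week 6, 59.2, 20.6 and 25.3 at week 8, 45.4, 58.7 and 34.1 at week 10, and 40.1, 16.03 and 19.4 at week 12. In FVB, *Mmp28* stood at 233, 242 and 278 at week 6, 399.9, 207 and 262 at week 8, 272, 341 and 164 at week 10, and 389, 181 and 401 at week 12. All 12 PyMT counts lay below all 12 FVB counts. *Mmp28* had log2 fold changes of -1.67, -3.03, -2.45 and -3.64 at weeks 6, 8, 10 and 12 (SE 0.31 to 0.53, adjusted p 0.0012 to 0.013), and log2 fold change -2.69 ± 0.27 (SE), adjusted p = 1.09e-08 over all weeks. For *Mmp28* the call was lost at week 6 without PyMT replicate 1 or without FVB replicate 3 (adjusted p 0.0527 to 0.0664).

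The 5 described members that lie in the MMP cluster on chromosome 9 (*Mmp3*, *Mmp7*, *Mmp10*, *Mmp12* and *Mmp13*) differed in level. *Mmp3*, stromelysin-1, was of middle level, at 18.6 CPM per kb in FVB and 7.79 in PyMT, and the other 4 were below 1 CPM per kb in both. Normalized counts of *Mmp3* ran from 1.88 to 223 in PyMT and from 41.7 to 563 in FVB. The groups overlapped at weeks 6 and 10. It was called over all weeks (log2 fold change -1.32 ± 0.40 (SE), adjusted p = 0.00723) and at none of the 4 weeks, where its log2 fold changes were -1.59, -1.85, -0.58 and -1.24. *Mmp12*, macrophage elastase, ran from 0 to 76.8 in PyMT and from 0 to 106 in FVB and was not called (over all weeks log2 fold change 1.27 ± 0.80 (SE), adjusted p = 0.192). It was called higher over all weeks in 2 of 34 alternatives, with counts divided by packet size (1.42, adjusted p = 0.0423) and in limma voom with quality weights (2.04, adjusted p = 0.0162). *Mmp13*, a collagenase, had a count in 8 of the 12 PyMT libraries and in 3 of the 12 FVB libraries, with at most 41.8 and 11.6. It was not among the tested genes, and with the weaker filter (1 CPM in at least 3 libraries) or no filter it was called higher over all weeks, with adjusted p = 0.0135 and 0.02. *Mmp7*, matrilysin, had a count in 2 PyMT and 2 FVB libraries, and *Mmp10*, stromelysin-2, in 2 PyMT libraries. *Mmp24*, a membrane-type gene outside the cluster, had a count in 3 PyMT and 2 FVB libraries.

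**Figure D3:**
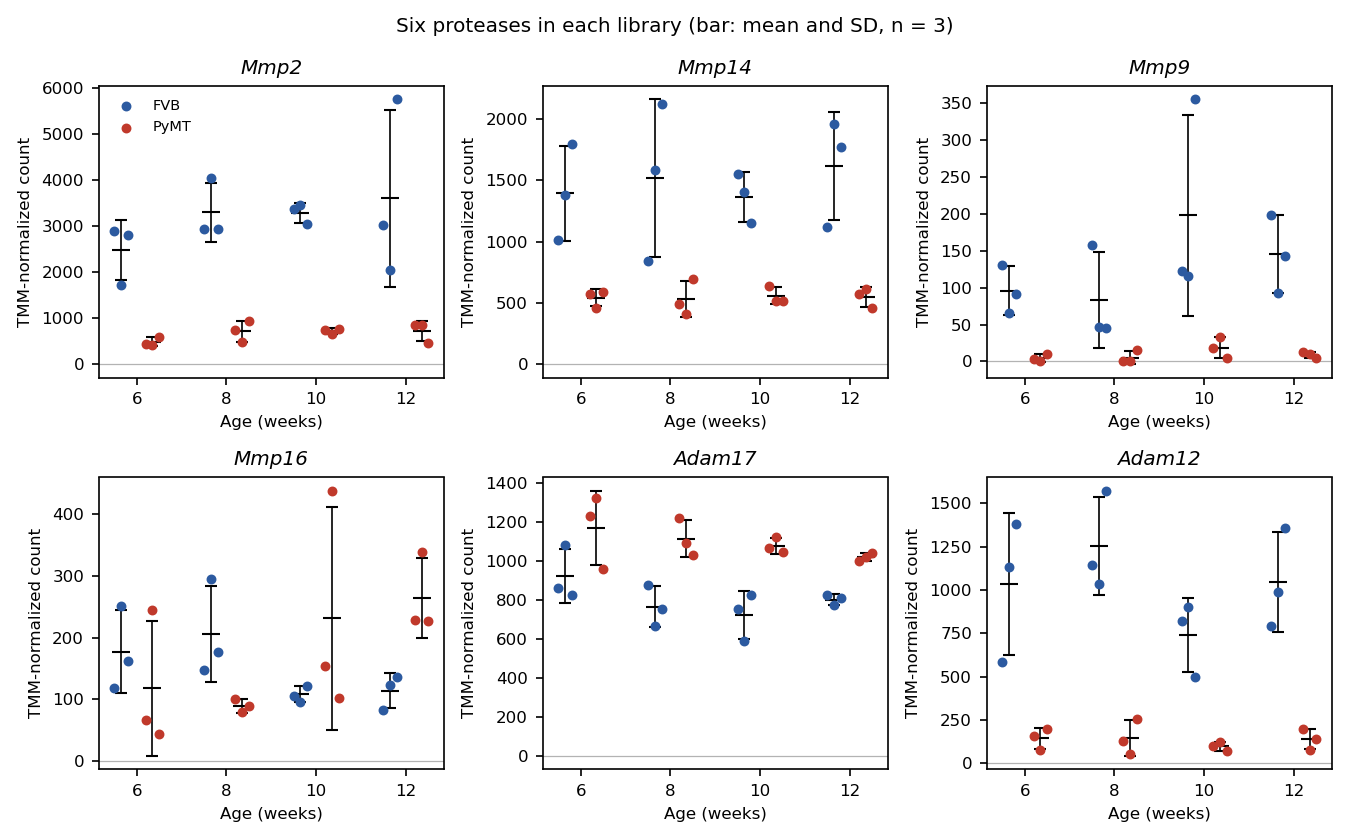
Normalized counts of *Mmp2*, *Mmp14*, *Mmp9*, *Mmp16*, *Adam17* and *Adam12* by age (horizontal axis, weeks) in 3 FVB (blue) and 3 PyMT (red) libraries a week, with the mean and SD as black bars. Counts were divided by DESeq2 size factors, although the vertical axis label names TMM. *Mmp2*, *Mmp14*, *Mmp9* and *Adam12* stay apart at every age; the *Mmp16* groups change order between week 8 and week 12; *Adam17* is higher in PyMT without overlap at weeks 8, 10 and 12, by less than 2-fold.

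The 4 inhibitors did not move together. *Timp2*, *Timp3* and *Timp4* fell, and *Timp1* rose over all weeks. *Timp2* (chr11:118162383-118217054 on mm9) inhibits MMPs and also takes part in the activation of the MMP2 proenzyme by MT1-MMP. PyMT counts of *Timp2* were 893, 674 and 876 at week 6, 1109.5, 729 and 1322 at week 8, 1257, 783 and 1013 at week 10, and 956, 1162 and 771 at week 12. In FVB, *Timp2* stood at 3854, 1879 and 2093 at week 6, 2595, 3128 and 2323 at week 8, 2634, 3063 and 5934 at week 10, and 4566, 2028 and 5286 at week 12. No PyMT library reached the lowest FVB library. *Timp2* had log2 fold changes of -1.69, -1.33, -1.87 and -1.99 at weeks 6, 8, 10 and 12 (SE 0.27 to 0.35, adjusted p 0.00443 to 0.0216), and log2 fold change -1.73 ± 0.18 (SE), adjusted p = 2.09e-08 over all weeks. For *Timp2* the call was lost at week 8 without PyMT replicate 1 or without FVB replicate 2 (adjusted p 0.0782 to 0.0854).

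*Timp3* (chr10:85763117-85812251 on mm9) encodes the inhibitor that stays bound to the matrix. PyMT counts of *Timp3* were 1124, 637 and 688 at week 6, 983, 1035 and 1299 at week 8, 750.0, 741 and 634 at week 10, and 585, 1003 and 492 at week 12. In FVB, *Timp3* stood at 3353, 1936 and 3189 at week 6, 5153, 3040.1 and 2112 at week 8, 3400.2, 4608 and 3336 at week 10, and 3203, 3085 and 4361 at week 12. Every PyMT count was below every FVB count. It had log2 fold changes of -1.80, -1.62, -2.37 and -2.31 at weeks 6, 8, 10 and 12 (SE 0.21 to 0.34, adjusted p 0.000427 to 0.023), and over all weeks log2 fold change -2.03 ± 0.17 (SE), adjusted p = 5.13e-10. For *Timp3* the call was lost at week 8 without PyMT replicate 1, 2 or 3 or without FVB replicate 2 (adjusted p 0.0552 to 0.0981). Exons of *Syn3* cover 1733 bases of the *Timp3* exons on the opposite strand.

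*Timp4* (chr6:115195634-115201867 on mm9) is known from adipose tissue and heart. PyMT counts of *Timp4* were 24.9, 1.04 and 43.7 at week 6, 24.8, 0 and 5.88 at week 8, 0, 45.1 and 1.71 at week 10, and 0, 47.01 and 7.39 at week 12. In FVB, *Timp4* stood at 344, 153 and 216 at week 6, 771, 156 and 329 at week 8, 461, 765 and 224 at week 10, and 92.8, 248 and 578 at week 12. In PyMT 3 libraries had a count of 0, and the groups were apart over all weeks. This member had the largest fold change over all weeks, with log2 fold change -4.39 ± 0.67 (SE), adjusted p = 6.89e-06. Its size rests on PyMT counts of 0 to 47.01, where packets weigh most. The call held at weeks 8, 10 and 12, and *Timp4* missed the threshold at week 6 (log2 fold change -3.31 ± 0.92 (SE), adjusted p = 0.0539). For *Timp4* the call was lost at week 8 without PyMT replicate 3 or without FVB replicate 3 (adjusted p 0.0538 to 0.0879), and at week 10 without PyMT replicate 1 or 3, without FVB replicate 1 or 2 or with library-size scaling (adjusted p 0.0548 to 0.102), and at week 12 without PyMT replicate 1 or 3, without FVB replicate 3 or in limma voom (adjusted p 0.0504 to 0.121).

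*Timp1* (chrX:20447292-20451861 on mm9) is known as the inducible member of the family. PyMT counts of *Timp1* were 114, 116 and 86.2 at week 6, 93.5, 15.00 and 161 at week 8, 41.8, 66.02 and 64.8 at week 10, and 94.6, 61.97 and 117 at week 12. In FVB, *Timp1* stood at 38.2, 25.5 and 63.4 at week 6, 0, 25.6 and 47.5 at week 8, 11.5, 72.1 and 0 at week 10, and 37.7, 57.97 and 29.5 at week 12. The 3 PyMT libraries were above the 3 FVB libraries at weeks 6 and 12, and the groups overlapped at weeks 8 and 10, where PyMT replicate 2 (week 8) and FVB replicate 2 (week 10) crossed the other group. The FVB counts of 0 and the PyMT count of 15.00 came from libraries with missing genes. No week was called, with log2 fold changes of 1.30, 1.91, 1.08 and 1.18 at weeks 6, 8, 10 and 12 (SE 0.48 to 1.41, adjusted p 0.106 to 0.667). Without the 2 libraries with missing genes, *Timp1* was called higher at week 8 (log2 fold change 1.83, adjusted p = 0.0365). Over all weeks it rose (log2 fold change 1.35 ± 0.52 (SE), adjusted p = 0.0337). That call was lost without PyMT week 8 replicate 3, PyMT week 12 replicate 3, FVB week 6 replicate 2, FVB week 10 replicate 1 or FVB week 12 replicate 3 (adjusted p 0.0501 to 0.0681) and without the 4 muscle-rich libraries (adjusted p = 0.0844), and its log2 fold change stayed between 1.14 and 1.76 in all alternatives run. The call held in DESeq2 (adjusted p = 0.00998) and without the libraries with missing genes (log2 fold change 1.16, adjusted p = 0.00542).

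**Figure D4:**
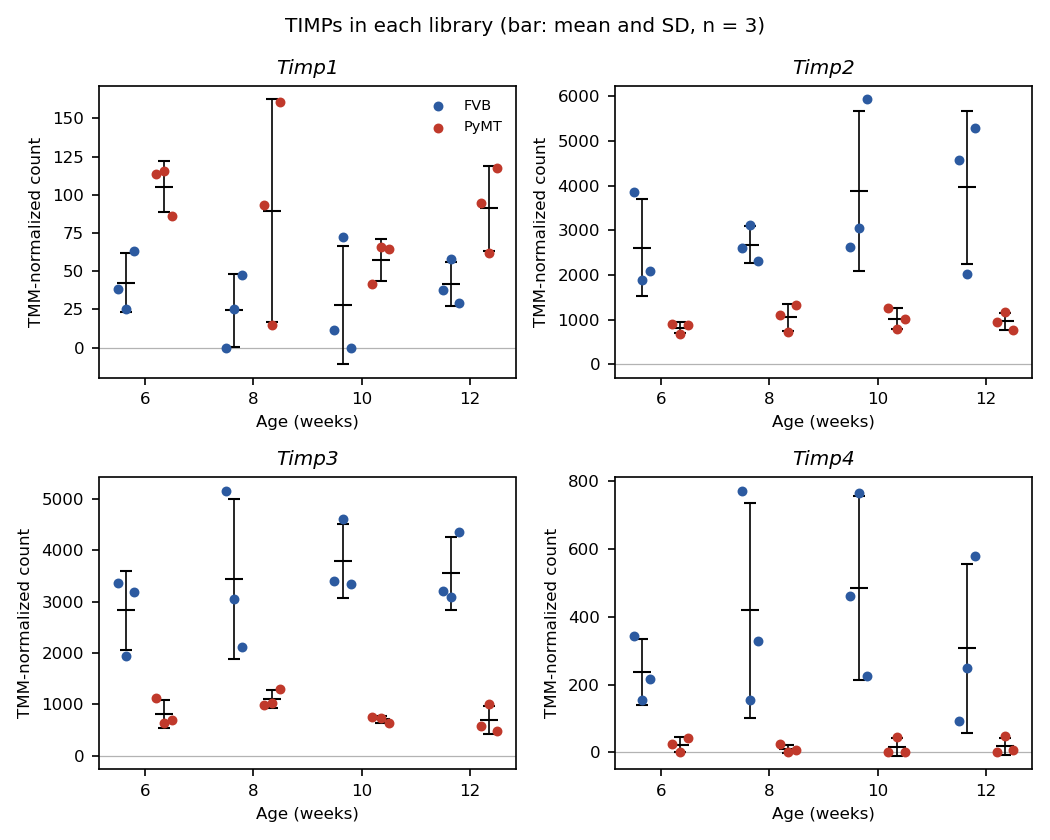
Normalized counts of the 4 TIMPs by age (horizontal axis, weeks) in 3 FVB (blue) and 3 PyMT (red) libraries a week, with the mean and SD as black bars. Counts were divided by DESeq2 size factors, although the vertical axis label names TMM. *Timp2*, *Timp3* and *Timp4* lie lower in PyMT at every age, and *Timp1* lies higher in PyMT without overlap at weeks 6 and 12.

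The makeup of the summed TIMP level (CPM per kb) differed accordingly. *Timp1* made up 0% to 6.20% of it in FVB libraries, with a median of 2.54%, and 5.10% to 34.1% in PyMT libraries, with a median of 21.1%. The *Timp1* shares of 0% and 5.10% came from libraries with missing genes. *Timp4* made up 3.92% to 29.5% in FVB and 0% to 7.99% in PyMT, and *Timp2* was the largest part in both, with medians of 54.3% and 52.7%. The summed MMP level ran from 207 to 422 CPM per kb in FVB and from 81.4 to 129 in PyMT, and the summed TIMP level from 102 to 267 in FVB and from 37.6 to 82.6 in PyMT. Both sums were lower in PyMT, without overlap. The ratio of the MMP sum to the TIMP sum had a median of 1.64 in FVB (1.06 to 2.35) and 2.06 in PyMT (1.499 to 2.87), with overlapping ranges.

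**Figure D5:**
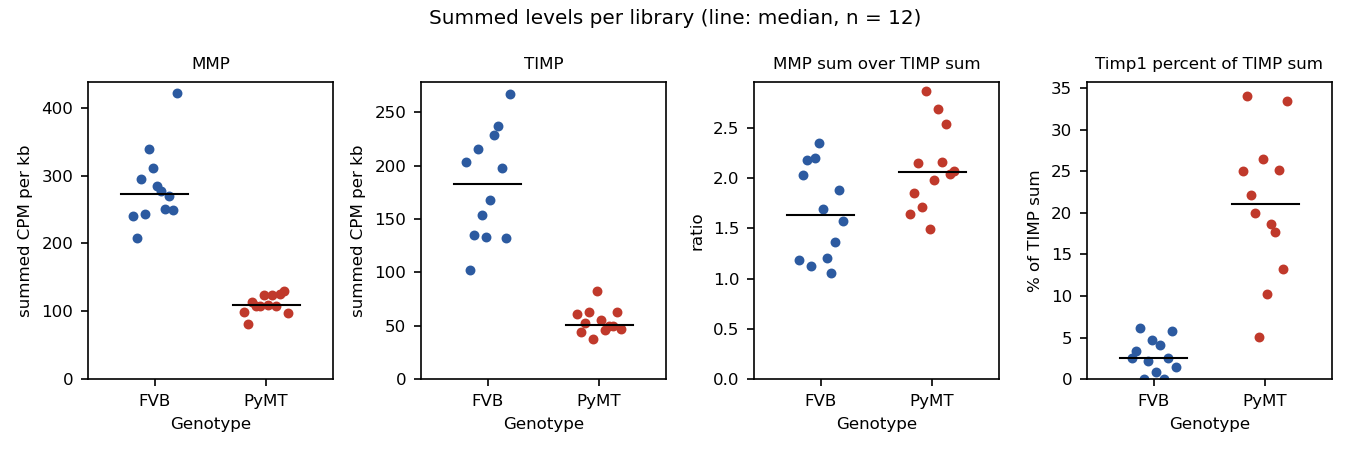
Summed CPM per kb of the 16 MMPs and of the 4 TIMPs, their ratio, and the percent of the TIMP sum that is *Timp1*, for each of the 12 FVB (blue) and 12 PyMT (red) libraries, with a line at the median. Both sums are lower in PyMT without overlap (207 to 422 against 81.4 to 129 for the MMPs), and the ratios overlap.

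Promoter sequences are shown for 5 members that differed in level or direction, to set 2 genes of the MMP cluster on chromosome 9 beside *Mmp14* and 2 TIMPs. RefSeq entries (table on GRCm38.p6, 250 bases before to 50 after the gene start) matched 24 of the 36 members. The sequences are 5′ to 3′ on the gene's strand, and each occurs once in the mm9 genome, at chr9:7445572-7445871 (*Mmp3*), chr9:7272264-7272563 (*Mmp13*), chr14:55050185-55050484 (*Mmp14*), chrX:20447042-20447341 (*Timp1*) and chr10:85762907-85763206 (*Timp3*), all on the plus strand. Capitals mark the AP-1 motif TGANTCA, the TATA box TATAAA, the GC box GGGCGG and the PEA3/ETS motif AGGAAGT, on either strand.
Mmp3: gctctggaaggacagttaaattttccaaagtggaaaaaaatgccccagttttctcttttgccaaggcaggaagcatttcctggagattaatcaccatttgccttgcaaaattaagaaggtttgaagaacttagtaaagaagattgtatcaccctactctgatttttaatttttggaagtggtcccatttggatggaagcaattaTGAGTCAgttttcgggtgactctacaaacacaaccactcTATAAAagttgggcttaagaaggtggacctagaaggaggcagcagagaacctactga
Mmp13: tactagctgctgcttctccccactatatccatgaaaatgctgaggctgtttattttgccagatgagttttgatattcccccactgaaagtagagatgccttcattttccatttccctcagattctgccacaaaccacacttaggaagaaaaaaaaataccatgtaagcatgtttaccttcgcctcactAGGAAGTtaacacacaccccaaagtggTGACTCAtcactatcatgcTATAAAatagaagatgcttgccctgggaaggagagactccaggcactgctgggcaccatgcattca
Mmp14: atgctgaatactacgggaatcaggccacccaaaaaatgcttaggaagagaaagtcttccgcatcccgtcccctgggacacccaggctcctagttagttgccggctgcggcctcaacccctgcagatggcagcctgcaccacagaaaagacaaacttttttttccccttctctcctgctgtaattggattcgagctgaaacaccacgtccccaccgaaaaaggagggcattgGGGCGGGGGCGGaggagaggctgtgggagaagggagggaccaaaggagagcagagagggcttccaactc
Timp1: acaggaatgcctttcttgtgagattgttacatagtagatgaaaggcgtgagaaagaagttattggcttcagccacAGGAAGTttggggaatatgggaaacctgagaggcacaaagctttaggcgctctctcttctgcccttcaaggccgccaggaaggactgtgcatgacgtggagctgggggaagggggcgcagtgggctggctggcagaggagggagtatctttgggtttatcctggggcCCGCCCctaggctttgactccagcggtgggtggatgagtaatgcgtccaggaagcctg
Timp3: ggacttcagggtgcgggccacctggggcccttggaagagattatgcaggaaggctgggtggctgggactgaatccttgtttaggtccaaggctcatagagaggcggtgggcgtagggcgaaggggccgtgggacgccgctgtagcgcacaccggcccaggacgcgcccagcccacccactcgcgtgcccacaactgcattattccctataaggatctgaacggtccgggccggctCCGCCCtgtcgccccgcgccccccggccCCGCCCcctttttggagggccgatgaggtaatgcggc

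The AP-1 motif occurred in 7.81% of the 32851 RefSeq promoters and the TATA box in 13.6%, and both together in 1.54%. All 5 of the members described here that lie in the MMP cluster on chromosome 9 held both (*Mmp3*, *Mmp7*, *Mmp10*, *Mmp12* and *Mmp13*). Other genes of that cluster were not looked at one by one. No other matched member held both, and *Adam19* and *Adamts1* held 1 of them. Relative to the gene start, TATAAA began at -29 in *Mmp10*, -123 and -26 in *Mmp7*, -16 in *Mmp13* and -7 in *Mmp3*. In *Mmp12* it began after the start, at base 5. The GC box occurred in 35.7% of all promoters and in 17 of the 24 matched members, among them *Mmp14*, *Mmp15*, *Timp1*, *Timp2* and *Timp3*, and the PEA3/ETS motif in 9.35% of all promoters and in *Mmp7*, *Mmp12*, *Mmp13*, *Timp1* and *Timp4*. *Timp1*, which was higher, and *Timp2* and *Timp3*, which fell, thus all held a GC box. A motif match is a description of the letters in this window.

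Of the 8 ADAMs, *Adam12*, *Adam15*, *Adam19* and *Adam33* fell, and *Adam8*, *Adam9*, *Adam10* and *Adam17* were not called. *Adam12*, meltrin alpha, is known from mesenchymal cells. PyMT counts of *Adam12* were 158, 80.3 and 196 at week 6, 128, 54.4 and 257 at week 8, 103, 122 and 69.1 at week 10, and 200.5, 80.1 and 141 at week 12. In FVB, *Adam12* stood at 585, 1135 and 1382 at week 6, 1147, 1037 and 1573 at week 8, 819, 903 and 499 at week 10, and 795, 989 and 1360.3 at week 12. The highest PyMT library was below the lowest FVB library. *Adam12* had log2 fold changes of -2.83, -3.05, -2.88 and -2.85 at weeks 6, 8, 10 and 12 (SE 0.34 to 0.54, adjusted p 0.000894 to 0.0132), and log2 fold change -2.91 ± 0.23 (SE), adjusted p = 1.8e-10 over all weeks. For *Adam12* the call was lost at week 8 without PyMT replicate 1 (adjusted p 0.0672). *Adam15*, metargidin, changed least among the called members. PyMT counts of *Adam15* were 389, 388 and 676 at week 6, 629.7, 442 and 656 at week 8, 527, 569 and 635 at week 10, and 657, 640.0 and 582 at week 12. In FVB, *Adam15* stood at 1139, 845 and 1177 at week 6, 1023, 1214 and 1431 at week 8, 1437, 1569 and 1063 at week 10, and 1209, 1113 and 1609 at week 12. The groups were apart at every week. It had log2 fold changes of -1.12, -1.07, -1.18 and -1.02 at weeks 6, 8, 10 and 12 (SE 0.18 to 0.28, adjusted p 0.00475 to 0.0365), with log2 fold change -1.11 ± 0.11 (SE), adjusted p = 1.23e-08 over all weeks, near the fold limit. For *Adam15* the call was lost at week 6 without PyMT replicate 1 or 2 or without FVB replicate 1, 2 or 3. It was also lost at week 6 with library-size scaling or without the library with missing genes (adjusted p 0.0585 to 0.129 for week 6). At week 8 it was lost without PyMT replicate 1, 2 or 3, without FVB replicate 2 or 3 or with library-size scaling (adjusted p 0.056 to 0.0921). At week 10 it was lost with library-size scaling (adjusted p 0.0835). At week 12 *Adam15* lost its call without PyMT replicate 3, without FVB replicate 3 or with library-size scaling (adjusted p 0.0144 to 0.033, log2 fold change -0.98 to -0.70). With library-size scaling its log2 fold change over all weeks was -0.83.

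*Adam19*, meltrin beta, sheds neuregulins. PyMT counts of *Adam19* were 195, 273 and 209 at week 6, 215, 92.8 and 245 at week 8, 241, 180.2 and 190.2 at week 10, and 94.6, 188 and 129 at week 12. In FVB, *Adam19* stood at 339.6, 506 and 623 at week 6, 359.5, 585 and 794 at week 8, 695, 507 and 385 at week 10, and 479, 368 and 694 at week 12. No PyMT count reached the lowest FVB count. It was called at weeks 6, 10 and 12 and over all weeks (log2 fold change -1.49 ± 0.19 (SE), adjusted p = 3.88e-07), and at week 8 it had log2 fold change -1.63 ± 0.44 (SE), adjusted p = 0.0541. For *Adam19* the call was lost at week 6 without PyMT replicate 1, 2 or 3 or without FVB replicate 2 or 3. It was also lost at week 6 with library-size scaling, under the weaker filter, with the replicate block or without the library with missing genes (adjusted p 0.0516 to 0.161 for week 6). At week 10 it was lost without PyMT replicate 1, 2 or 3, without FVB replicate 1 or with library-size scaling (adjusted p 0.0541 to 0.109). *Adam33* is known from mesenchymal cells of the airway. PyMT counts of *Adam33* were 13.4, 61.5 and 23.3 at week 6, 67.7, 19.7 and 47.6 at week 8, 16.02, 79.6 and 26.4 at week 10, and 5.14, 34.2 and 13.9 at week 12. In FVB, *Adam33* stood at 232, 94.1 and 112 at week 6, 285, 276 and 169.5 at week 8, 132, 177 and 216 at week 10, and 281, 51.7 and 443 at week 12. Within each week all PyMT counts were lower, and over all weeks the groups overlapped. *Adam33* was called at weeks 8 and 12 and over all weeks (log2 fold change -2.60 ± 0.40 (SE), adjusted p = 7.7e-06). For *Adam33* the call was lost at week 8 without PyMT replicate 1 or 3 or without FVB replicate 2 (adjusted p 0.0582 to 0.0924), and at week 12 without PyMT replicate 3, without FVB replicate 3 or with the replicate block (adjusted p 0.0513 to 0.067).

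The other 4 ADAMs include the main sheddases of growth factors and receptors, and none was called at any week. *Adam10*, the main sheddase of Notch, ran from 965 to 1775 in PyMT and from 810 to 1601 in FVB (log2 fold change 0.06 ± 0.10 (SE), adjusted p = 0.664 over all weeks), and *Adam9* from 635 to 1248 and from 711 to 1211 (log2 fold change 0.06 ± 0.10 (SE), adjusted p = 0.648). *Adam17*, which releases TNF and several ligands of the EGF receptor, ran from 959 to 1324 in PyMT and from 588 to 1080 in FVB. The groups were apart at weeks 8, 10 and 12 and overlapped at week 6. Its difference over all weeks passed the adjusted p and not the fold limit (log2 fold change 0.47 ± 0.08 (SE), adjusted p = 1.79e-05). With library-size scaling, under which the median log2 fold change of all genes is 0.26 in place of -0.03, *Adam9*, *Adam10* and *Adam17* had 0.37, 0.33 and 0.77. *Adam8*, known from leukocytes, ran from 51.1 to 198 in PyMT and from 13.9 to 119 in FVB (log2 fold change 0.51 ± 0.27 (SE), adjusted p = 0.123).

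Of the 8 ADAMTS proteases, *Adamts1*, *Adamts2*, *Adamts5*, *Adamts9*, *Adamts12* and *Adamts15* fell, and *Adamts4* and *Adamts10* were not called. *Adamts2* removes the N-terminal propeptide of fibrillar procollagens. PyMT counts of *Adamts2* were 317, 144 and 366 at week 6, 281, 286 and 637 at week 8, 465, 299 and 347 at week 10, and 573, 462 and 323 at week 12. In FVB, *Adamts2* stood at 1350.2, 983 and 1653 at week 6, 888, 1291 and 1711 at week 8, 1016, 1499 and 1684 at week 10, and 1156, 856 and 1979 at week 12. The highest PyMT library was below the lowest FVB library. *Adamts2* had log2 fold changes of -2.26, -1.66, -1.86 and -1.51 at weeks 6, 8, 10 and 12 (SE 0.26 to 0.40, adjusted p 0.00299 to 0.0368), and log2 fold change -1.83 ± 0.19 (SE), adjusted p = 3.08e-08 over all weeks. For *Adamts2* the call was lost at week 8 without PyMT replicate 1 or 2, without FVB replicate 2 or 3 or with library-size scaling (adjusted p 0.0626 to 0.13), and at week 12 without PyMT replicate 3 (adjusted p 0.0505).

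*Adamts1*, *Adamts5* and *Adamts9* cleave aggrecan and versican. PyMT counts of *Adamts1* were 238, 211 and 184 at week 6, 85.9, 213 and 340.0 at week 8, 112, 200.2 and 110.0 at week 10, and 271, 162 and 221 at week 12. In FVB, *Adamts1* stood at 620.0, 433 and 573 at week 6, 779.6, 291 and 655 at week 8, 795, 537 and 809 at week 10, and 736, 644 and 884 at week 12. The groups overlapped at week 8 and were apart at the others. *Adamts1* was called at weeks 6, 10 and 12 and over all weeks (log2 fold change -1.71 ± 0.20 (SE), adjusted p = 1.52e-07). Leaving out the muscle-rich libraries left 1 FVB library at week 6, where the log2 fold change of *Adamts1* was -1.43. PyMT counts of *Adamts5* were 309.8, 55.3 and 423 at week 6, 298, 51.6 and 593 at week 8, 285, 227 and 196 at week 10, and 367, 292 and 202 at week 12. In FVB, *Adamts5* stood at 1259.8, 893 and 2130.3 at week 6, 1543, 1734 and 2978 at week 8, 3596, 3292 and 2604 at week 10, and 1982, 1406 and 3452 at week 12. All PyMT libraries were below all FVB libraries. *Adamts5* was called at weeks 6, 10 and 12, with log2 fold changes of -2.42, -2.69, -3.69 and -2.95 at weeks 6, 8, 10 and 12 (SE 0.24 to 0.75, adjusted p 0.00015 to 0.0583), and log2 fold change -2.94 ± 0.33 (SE), adjusted p = 7e-08 over all weeks. At week 8 it missed the threshold (log2 fold change -2.69 ± 0.75 (SE), adjusted p = 0.0583) and was called lower in 11 of 18 alternatives. For *Adamts5* the call was lost at week 6 without PyMT replicate 1 or 3, without FVB replicate 1, 2 or 3 or with library-size scaling (adjusted p 0.0567 to 0.13).

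PyMT counts of *Adamts9* were 515, 324 and 443 at week 6, 222, 91.9 and 453 at week 8, 265, 167 and 165 at week 10, and 224, 152 and 177 at week 12. In FVB, *Adamts9* stood at 1587, 1948 and 2094 at week 6, 1462, 1706 and 1676 at week 8, 1485, 2213 and 986 at week 10, and 1174, 1590.4 and 1986 at week 12. Every PyMT count of *Adamts9* was below every FVB count. *Adamts9* had log2 fold changes of -2.14, -2.62, -2.92 and -3.06 at weeks 6, 8, 10 and 12 (SE 0.23 to 0.52, adjusted p 0.000253 to 0.0199), and log2 fold change -2.69 ± 0.21 (SE), adjusted p = 1.62e-10 over all weeks. For *Adamts9* the call was lost at week 8 without PyMT replicate 1 or without FVB replicate 2 or 3 (adjusted p 0.0513 to 0.0893). *Adamts12* binds and cuts the matrix protein COMP. PyMT counts of *Adamts12* were 251, 362 and 318 at week 6, 266, 219 and 405 at week 8, 175, 204 and 204 at week 10, and 474, 214 and 189 at week 12. In FVB, *Adamts12* stood at 1337, 1475 and 2641 at week 6, 1863, 2600.4 and 2349 at week 8, 1808, 2114 and 1554 at week 10, and 1478, 1781 and 2254 at week 12. The groups were far apart, with a highest PyMT count of 474 and a lowest FVB count of 1337. It had log2 fold changes of -2.55, -2.91, -3.18 and -2.61 at weeks 6, 8, 10 and 12 (SE 0.20 to 0.36, adjusted p 0.000123 to 0.00378), and log2 fold change -2.82 ± 0.16 (SE), adjusted p = 2.5e-12 over all weeks.

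*Adamts15* cleaves versican and aggrecan. PyMT counts of *Adamts15* were 255, 183 and 376 at week 6, 205, 316 and 366 at week 8, 183, 350.0 and 227 at week 10, and 539, 202 and 323 at week 12. In FVB, *Adamts15* stood at 681, 777 and 1528 at week 6, 415, 941 and 1025 at week 8, 671, 934 and 259.8 at week 10, and 413, 491 and 516 at week 12. The groups were apart at weeks 6 and 8 and overlapped at weeks 10 and 12. It was called at week 6 (log2 fold change -1.87 ± 0.38 (SE), adjusted p = 0.0181) and over all weeks (log2 fold change -1.24 ± 0.24 (SE), adjusted p = 0.000133), and at week 12 it had log2 fold change -0.37 ± 0.33 (SE), adjusted p = 0.435. At week 8 it missed the threshold (log2 fold change -1.41 ± 0.38 (SE), adjusted p = 0.053) and was called lower in 10 of 18 alternatives. For *Adamts15* the call was lost at week 6 without PyMT replicate 1 (adjusted p 0.0819). With library-size scaling the call over all weeks was lost too (log2 fold change -0.999, adjusted p = 0.00324). *Adamts10*, which binds fibrillin, ran from 313 to 567 in PyMT and from 419 to 700.0 in FVB (log2 fold change -0.23 ± 0.10 (SE), adjusted p = 0.0578 over all weeks), and *Adamts4* from 9.39 to 142 and from 3.13 to 185 (log2 fold change -0.36 ± 0.41 (SE), adjusted p = 0.488).

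Some weekly differences that missed the threshold passed it in alternatives. Of 18 alternatives, *Adam19* was called lower at week 8 in 9, *Mmp9* at week 6 in 8, *Timp4* at week 6 in 7, *Adam33* at weeks 6 and 10 in 5 and 6, *Adamts15* at week 10 in 6, and *Mmp23* at weeks 6, 8 and 10 in 3, 2 and 5. *Mmp3* at week 12 and *Mmp16* at week 8 were called lower in 3 each, and *Mmp12* was called higher at week 8 in 3.

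The changes with age were tested next. No member was called when the genotype difference of week 12 was set against that of week 6, or that of week 10 against week 8 (0% and 0.0067% of all tested genes were called), or between week 12 and week 6 within PyMT or within FVB (0% in both). At an unadjusted p under 0.05 there were 3, 1, 4 and 2 members in these 4 comparisons in edgeR (9.38%, 3.12%, 12.5% and 6.25% of 32), where all genes had 4.63%, 3.57%, 6.73% and 4.19%. DESeq2 called 0, 0, 1 and 0 members and 10, 7, 97 and 19 of all genes. The median log2 value of the 32 members was -0.11 for the change from week 6 to week 12, beside 0.03 for all genes, and -0.05 for that from week 8 to week 10, beside 0.01. *Mmp16* had the largest change between weeks 8 and 10 (log2 fold change 2.31 ± 0.76 (SE), adjusted p = 0.9998), and from week 6 to week 12 it had log2 fold change 1.87 ± 0.76 (SE), adjusted p = 0.973. *Mmp28* had log2 fold change -1.98 ± 0.62 (SE), adjusted p = 0.923 and *Adamts15* log2 fold change 1.48 ± 0.63 (SE), adjusted p = 0.978 from week 6 to week 12. Within PyMT, *Mmp28* was called lower at week 12 than at week 6 by DESeq2 alone (log2 fold change -1.65, adjusted p = 0.049), and *Mmp16* higher when the libraries with missing genes were left out (2.26, adjusted p = 0.0309).

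Markers of other cell types moved with these genes. All 8 fibroblast markers were called lower at weeks 6 and 12, 5 at week 8 and 6 at week 10, with median log2 fold changes of -2.02, -2.19, -1.82 and -2.004, and their summed level ran from 2458 to 5507 CPM in PyMT and from 5902 to 21977 CPM in FVB. Of the 8 adipocyte markers 8, 7, 8 and 8 were called lower (115 to 1778 CPM in PyMT, 5524 to 15172 CPM in FVB), and of the 6 endothelial markers 5, 6, 6 and 6 (75.6 to 227 CPM and 497 to 886 CPM). Of the 8 myoepithelial markers 3, 3, 4 and 4 were called lower (153 to 719 CPM and 515 to 1883 CPM). Luminal markers went the other way, with 4, 4, 7 and 6 of 8 called higher (2434 to 4580 CPM in PyMT, 493 to 2222 CPM in FVB). Of the 7 macrophage markers, 1 was called higher at week 6 and 3 lower at week 10, and their sums overlapped (272 to 481 CPM and 297 to 594 CPM). Of the 8 neutrophil markers, 2 were tested and *Ly6g* was at 0 in all 24 libraries; they summed to at most 26.3 CPM in any library, and 1 was called higher at weeks 6, 8 and 12. None of the 6 lymphocyte markers reached the level for testing (at most 11.3 CPM in sum). Skeletal muscle markers were called lower for 0, 3, 0 and 8 of 10 (8.75 to 4212 CPM in PyMT, 14.6 to 72227 CPM in FVB). Among all tested genes, 6.46%, 6.37%, 9.09% and 13% were called lower at weeks 6, 8, 10 and 12, and 3.58%, 3.57%, 4.83% and 7.75% higher. The part of these cell types in the lower protease and TIMP levels was not tested. Without the muscle-rich libraries of weeks 10 and 12, the members called at these weeks were 16 and 19. The share of all genes called in either direction went from 13.9% and 20.7% to 15.9% and 17.1%. At week 6 leaving them out left 1 FVB library, replicate 3, so no calls are given for that fit. No library of week 8 was rich in muscle.

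Genes that regulate or assist these proteases were taken as a list of 32, of which 24 were tested. Of these, 2 rose and 8 fell at week 6, 3 and 7 at week 8, 3 and 8 at week 10, and 5 and 11 at week 12. Among all tested genes, 3.58%, 3.57%, 4.83% and 7.75% were called higher and 6.46%, 6.37%, 9.09% and 13% lower. The median of the 24 genes was -0.98, -0.81, -0.73 and -0.93 on the log2 scale, beside -0.08, -0.04, 0.01 and -0.00 for all tested genes. *A2m*, which encodes the broad protease inhibitor alpha-2-macroglobulin, was called higher at all 4 weeks: its 12 PyMT counts ran from 31.2 to 778 (median 109), and 10 of the 12 FVB libraries had a count of 0. *Lcn2*, lipocalin-2, whose protein forms a complex with MMP9, ran from 9425 to 16147 in PyMT and from 346 to 1505 in FVB, and its log2 fold change was 4.59, 4.31, 4.63 and 3.32 (adjusted p 0.000103 to 0.00168). *Cd44*, a receptor that can dock MMP9 and MT1-MMP at the cell surface, ran from 781 to 1668 in PyMT and from 471 to 868 in FVB and was called higher at weeks 8, 10 and 12 (1.05, 1.05 and 1.11, adjusted p 0.00274 to 0.0404). *Spock2*, a testican proteoglycan, was called lower at all 4 weeks (12.6 to 51.2 in PyMT, 105 to 455 in FVB). *Mmp9* itself fell while *Lcn2* and *Cd44* rose.

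A list of 28 other metalloproteases and ADAMTS-like genes held 21 that were tested. Of these, 0 rose and 5 fell at week 6, 1 and 3 at week 8, 2 and 7 at week 10, and 3 and 10 at week 12. Among all tested genes, 3.58%, 3.57%, 4.83% and 7.75% were called higher and 6.46%, 6.37%, 9.09% and 13% lower. The median of the 21 genes was -1.35, -1.52, -2.005 and -2.06 on the log2 scale, beside -0.08, -0.04, 0.01 and -0.00 for all tested genes. *Papln*, papilin, an ADAMTS-like matrix protein, was called higher at weeks 8, 10 and 12 (log2 fold change 1.72, 2.50 and 1.51, adjusted p 0.00206 to 0.0303), and ran from 1108 to 4006 in PyMT and from 276 to 1732 in FVB. *Adam22* and *Adam23*, which lack an active protease site, were called lower at all 4 weeks (for *Adam23* -2.75, -2.97, -2.17 and -2.72, adjusted p 0.00131 to 0.0128). Their counts ran from 13.4 to 47.2 and from 35.6 to 150 in PyMT, and from 80.7 to 307 and from 384 to 824 in FVB. *Adamtsl5*, an ADAMTS-like gene, was called lower at weeks 8, 10 and 12 (-2.23, -2.91 and -3.18, adjusted p 0.000498 to 0.0355), with 5.24 to 90.8 in PyMT and 155 to 291 in FVB.

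Libraries were made to keep the strand, and the strand setting of the counting is not given in the sources used here, so reads of a member and of a gene on the opposite strand could not be told apart. Such overlaps of exons reached 1733 bases for *Timp3*, 1381 for *Adamts9*, 1263 for *Adam15*, 789 for *Mmp19*, 587 for *Adam19* and 465 for *Mmp28*. *Mmp2*, *Mmp14*, *Timp1*, *Timp2*, *Timp4*, *Adam12*, *Adamts2*, *Adamts5* and *Adamts12* share no exon with another gene.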

How the data were processed

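RNA of 24 mammary tumors or glands, 3 per genotype and week, had been depleted of ribosomal RNA and made into directional libraries. Per the labels and the study's methods, the authors aligned reads with GSNAP to mm9, used HTSeq for gene-level counting. The deposited table holds raw counts by Ensembl gene, which entered the tests unchanged. The annotation and the strand setting of the counting are not given in the sources used here. Between 6969375 and 13516601 reads were counted per library (median 8280269), and counts below about 3 reads carry little information. In the 13 libraries with packets, a count near 8 to 25 reads can stand for a single packet, so little information reaches higher there.

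The 36 members and all gene lists were chosen with earlier results of these data known. Groups came from the sample titles. Genes with at least 1 CPM in at least 12 libraries were kept, and edgeR 4.0.16 (R 4.3.3) with TMM scaling and the quasi-likelihood test compared PyMT with FVB in the 6 libraries of each week. All 24 libraries in 1 fit gave the comparison over all weeks, the changes of the difference between weeks and the changes with week within a genotype. Calls needed a Benjamini-Hochberg adjusted p under 0.05 over all tested genes and a fold change above 2. Levels between genes are CPM per kb of all GENCODE M1 exons of a gene, merged (1798 bases for *Mmp3*, 7237 for *Mmp12*). This length does not depend on which transcripts were expressed, which limits comparisons of level between genes. Alternatives used DESeq2 1.42.0, limma 3.58.1, other scalings, filters and left-out libraries; those without the libraries with missing genes or with muscle were chosen after seeing the data. Scripts were tested on simulated data. All 36 members could be named; members called at a week and the TIMPs have every sample's value, and of the 2 other lists at most 4 genes per direction called at 3 or more weeks are named. Promoters came from RefSeq's table on GRCm38.p6 and were matched exactly to mm9.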

Additional observations from a re-analysis of the deposited data

Results flagged for a closer look

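*Mmp16* had its PyMT and FVB groups apart in opposite directions at different ages: all 3 PyMT libraries were lower at week 8 (log2 fold change -1.19) and all 3 were higher at week 12 (1.26). Of the 14918 tested genes, 140 (0.938%) had groups apart in opposite directions at 2 ages, and of the 32 tested members 1 did (3.12%). The change of the difference from week 8 to week 12, tested after these values were seen, was 2.44 ± 0.76 (SE) on the log2 scale with an unadjusted p = 0.00441 and an adjusted p = 0.9997 (edgeR). Without the libraries with missing genes the *Mmp16* difference at week 8 was -1.28 (adjusted p = 0.0323). The change between the 2 ages did not pass the adjustment over all genes.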

How the results depend on the processing

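In the leave-one-out fits, members called numbered 9 to 16 (week 6), 4 to 16 (week 8), 13 to 16 (week 10), 14 to 20 (week 12) and 21 to 22 (all weeks), and 0 for the changes with week. Of the 14918 tested genes, 857 to 1606, 513 to 1473, 1262 to 2370, 2189 to 3438 and 3680 to 3908 were called at these weeks and over all weeks. Week 6 had 9 members without PyMT replicate 1. Week 8 had 4 members without PyMT replicate 1, 6 without FVB replicate 2 and 8 without FVB replicate 3. Fits that left 2 libraries in an arm assume that they vary like the others. Leaving out the muscle-rich libraries of week 6 left 1 FVB library, replicate 3, with no spread within FVB to measure. Without the libraries with missing genes, week 8 had 21 calls (19 lower, and *Mmp12* and *Timp1* higher). For PyMT week 12 against week 6, DESeq2 called 1 member and the fit without the libraries with missing genes 1, where edgeR called 0; the cause was not tested. With library-size scaling, the calls were 11, 10, 12 and 19 at weeks 6, 8, 10 and 12 and 20 over all weeks. Of the 14918 tested genes this scaling called 1433, 1575, 1945, 3581 and 4052, where TMM scaling called 1498, 1484, 2076, 3092 and 3840.

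The labels tie no replicate number to a shared litter, batch or day, and the samples were not treated as paired: the correlations of same-numbered deviations ran from -0.03 to 0.177, with 4 of 12 pairs over 0.1 and 6 of 12 above the best other pairing. Replicate 3 at weeks 6, 8 and 10 (0.145, 0.177 and 0.164) and replicate 1 at week 10 (0.116) were the 4, so a partial pairing was not settled. A fit with the replicate number as a block gave 15, 15, 15 and 18 members at weeks 6, 8, 10 and 12, 22 over all weeks and 0 for each change with week. It called 1181, 1364, 2013, 2787 and 3827 of the 14918 tested genes at these weeks and over all weeks. With the replicate block *Timp4* at week 6 and *Adamts5* and *Adamts15* at week 8 gained a call (adjusted p 0.0496, 0.0329 and 0.0231), and *Adam19* at week 6, *Mmp9* at week 10 and *Mmp11* and *Adam33* at week 12 lost one. No called value reversed in any alternative; among the tests of single members, 113 lost and 92 gained a call. With 3 libraries a group and packet counts in 13 libraries, members of low level, such as *Mmp7*, *Mmp10*, *Mmp13* and *Mmp24*, could not be compared reliably.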
